A study of Arabidopsis thaliana with 12 samples.

Results

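A set of 44 probe sets was brighter on every array of the mutant line QK than on any array of the wild types Col-0 and Ws. They were chosen from 18465 probe sets by these same values: on the scale log2(signal + 16), the lowest of the 4 QK arrays had to lie at least 1 above the highest of the 8 wild-type arrays. The rule found 53 probe sets, and 9 of them (BGLU19, ICL, DELTA-VPE, PDF1.4, LEA18, AT3G17520, AT3G02480, AT3G15670 and AT1G04560) were left out by the rule. Of the 44 members, 20 were paired with exactly 1 gene by the annotation used and 24 with none. The height of a member in QK above the wild types is therefore how it was chosen, and is given below as a description without a test.

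The RNA came from Arabidopsis thaliana seedlings that were 7 days old and had been raised at 22 °C on plates of MS medium with sucrose. Col-0 and Ws are natural accessions. QK lacks 4 class A1 heat shock factors, according to the literature on the line; these proteins start the transcription of heat shock genes. Its alleles come from both accessions, so neither wild type alone is its isogenic control. Each line was sampled untreated (control) or heated to 37 °C for 1 h (heat). The 6 groups had 2 biological replicates each, on 12 arrays. The levels of the 4 mutated factors were not examined.

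Several of the named genes belong to families known from the maturing seed. An embryo fills its cells with oil bodies, droplets of oil coated with oleosins, and with storage globulins and albumins, which are cut to their final form by vacuolar processing enzymes. It then makes late embryogenesis abundant proteins (LEA proteins), hydrophilic proteins that protect cells as they dry. Under the hormone abscisic acid and a small group of seed transcription factors these RNAs reach high levels in the dry seed, and they normally disappear as the seedling greens.

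Median signal per array ranged from 75.6 to 87.3, and the number of arrays, 2 per group, limits the precision of every value. The 2 arrays labelled Col-0 replicate 2 went against their treatment labels. Among 248 probe sets that limma called in heated Ws with a rise of 4-fold or more, 245 were brighter in the array labelled heat than in the one labelled control in Col-0 replicate 1, and 2 in Col-0 replicate 2. The rule for the members takes no treatment label, and tests of heat below use Ws and QK only. Of the 4 measured markers of the photosynthetic shoot none was called between QK and Ws by limma, and their summed signal spanned 26284 to 35043 in QK, 26318 to 38408 in Ws and 27666 to 40310 in Col-0. Of the 3 measured root markers, PYK10 had a log2 difference of 0.87 between QK and Ws (limma adjusted p = 0.0204), below the 2-fold needed for a call. The others, EXPA7 and EXPA18, had log2 differences of 0.27 and 0.2 (limma adjusted p = 0.521 and 0.791). The summed root signal, most of it PYK10, spanned 3404 to 7120 in QK, 1480 to 5024 in Ws and 1855 to 6191 in Col-0. The seed coat peroxidase PRX36, the 1 seed coat marker measured beyond those that met the rule, lay between 9.4 and 12.5 in QK and between 9.8 and 15.5 in Ws, and no gene of the flower and pollen list had a probe set of its own. The part of these tissues in the results was not tested.

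The same rule was applied to the other lines and in the opposite direction. It found 3 probe sets that were always lower in QK. Col-0 had 18 always higher and 4 always lower than the other 8 arrays, and Ws had 0 and 6. The 44 members together held 0.374% to 0.813% of the summed signal of a QK array and 0.0294% to 0.0461% of that of a wild-type array. In whole seedlings, more cells with such RNAs and more RNA per cell cannot be told apart. The distance between the lowest QK and the highest wild-type array had a median of 1.99 and reached 4.48 on the log2 scale, and it was at least 2 for 21 members. The mean of the QK arrays lay above that of the wild-type arrays by a median of log2 3.21, with a range of 1.73 to 6.54.

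For most members the wild-type signal was near the floor of the array. In 29 of the 44 all 8 wild-type arrays lay below the 35th percentile of their array, a signal of 40.3 to 47.0, and 35 had a wild-type median under 30. With signals this low the size of a difference depends on the 16 added before the logarithm. All 44 members passed the filter on dim probe sets in the fits below, which most of them did through QK.

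**Figure D1:**
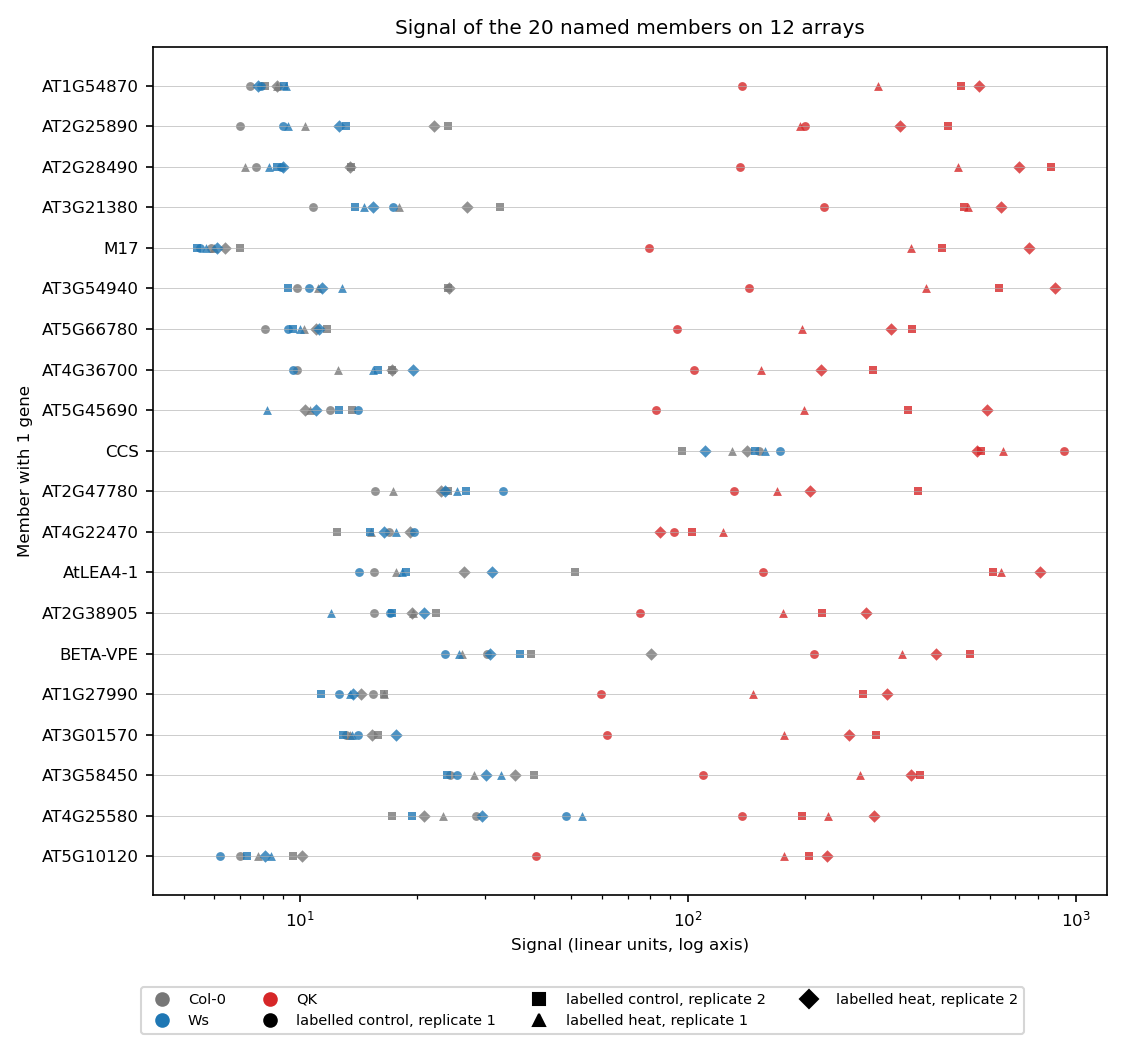
Signal of the 20 members with 1 gene on each of the 12 arrays, on a log axis, with colour for the line and marker shape for the labelled treatment and replicate. The 4 QK arrays lie to the right of the 8 wild-type arrays in every row, as the rule requires. CCS has wild-type signals of 96.7 to 172.4, while the other 19 genes lie between 5.4 and 80.4 there.

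The first 4 named members belong to families that coat oil droplets or are found with them. AT2G25890, an oleosin, had signals of 200.9 and 468.1 in QK control and of 194.2 and 353.3 in QK heat, against 7.0 to 24.1 in the wild types with a median of 11.4. AT3G01570, also an oleosin, had 62.0 and 305.2 in QK control and 176.5 and 260.3 in QK heat, against 12.9 to 17.7 in the wild types. Both oleosins were lower in replicate 1 than in replicate 2 of QK. AT5G45690, of the DUF1264 family that includes oil body-associated proteins, had 82.8 and 369.4 in control and 199.4 and 592.3 in heat, against 8.2 to 14.1. AT2G47780, of the family of rubber elongation factors and lipid droplet-associated proteins, had 131.4 and 391.7 in control and 170.0 and 206.1 in heat, against 15.6 to 33.4. The mean of these 4 genes in QK lay above the wild types by log2 2.51 to 3.38.

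A second group makes or processes stored protein. AT2G28490, a cupin of the vicilin-like seed storage globulins, had 136.2 and 862.7 in QK control and 496.5 and 715.8 in QK heat, against 7.2 to 13.5 in the wild types. AT4G36700, a cupin of the same superfamily, had 103.5 and 300.7 in control and 154.1 and 220.7 in heat, against 9.6 to 19.5. In both cupins QK control replicate 1 was the lowest and QK control replicate 2 the highest of the QK arrays. BETA-VPE, a vacuolar processing enzyme that cuts storage proteins in seeds, had 211.1 and 532.8 in control and 357.4 and 437.5 in heat. Its wild-type signals had a median of 30.6 and reached 80.4, and the highest was the array labelled Col-0 heat replicate 2. AT3G54940, a papain-type cysteine protease, had 144.0 and 634.2 in control and 410.9 and 882.8 in heat, against 9.3 to 24.2, where both Col-0 replicate 2 arrays stood above the other 6. The mean of these 4 genes in QK lay above the wild types by log2 2.70 to 4.21.

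A further 5 named members are LEA proteins or belong to families known from drought and cold. M17, a LEA protein, had 79.3 and 453.4 in QK control and 375.3 and 759.7 in QK heat, and at most 7.0 in the wild types. Among the 4 QK arrays M17 spanned log2 3.02, the widest range of any member. AtLEA4-1, a group 4 LEA protein, had 156.4 and 613.5 in control and 642.7 and 809.5 in heat. Its wild-type signals ran from 14.2 to 51.2 with a median of 18.5. AT4G25580, a relative of the cold-acclimation protein CAP160 and of LTI65, had 138.0 and 196.6 in control and 230.0 and 302.1 in heat. Its wild-type signals ran from 17.2 to 53.2, and both Ws replicate 1 arrays, with 48.5 and 53.2, stood above the 4 Col-0 arrays, which reached 28.4. AT2G38905, a small membrane protein of the low temperature and salt responsive family, had 75.4 and 221.9 in control and 176.0 and 288.3 in heat, against a wild-type median of 18.3 and a highest value of 22.4. AT3G58450, of the universal stress protein family, had 109.3 and 398.0 in control and 278.0 and 377.4 in heat, against 23.9 to 40.1.

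The remaining named members are more mixed. AT3G21380, a jacalin-like lectin, had 224.5 and 517.0 in QK control and 529.3 and 643.3 in QK heat, against 10.8 to 32.7 in the wild types. In the gene order of the TAIR10.1 annotation it lies beside BGLU19, one of the genes left out, with 1 protein-coding gene between them. No other pair among the 20 named members and the 9 left out had fewer than 35 protein-coding genes between them, and the named members were spread over chromosomes 1 to 5 as 5, 5, 4, 3 and 3 genes. AT4G22470, of the protease inhibitor and lipid transfer protein family, had 91.9 and 102.2 in control and 123.0 and 84.5 in heat, against 12.4 to 19.7. With a range of log2 0.47 its QK arrays lay closer together than those of any other named member.

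AT1G54870, a short-chain dehydrogenase, had the largest distance between lines among the named genes, log2 2.61. Its signals were 138.0 and 505.4 in QK control and 310.2 and 564.5 in QK heat, against 7.4 to 9.2 in the wild types. AT5G10120, a transcription factor of the ETHYLENE INSENSITIVE3-like family, had 40.6 and 205.1 in control and 177.5 and 228.4 in heat, against 6.2 to 10.1. It was the named gene nearest to the threshold. AT5G66780 had 94.0 to 378.3 in QK and 8.1 to 11.7 in the wild types, and AT1G27990 had 59.5 to 326.1 and 11.3 to 16.4. Both repeat the order of most members, with QK control replicate 1 as the lowest QK array.

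CCS, the copper chaperone that loads copper into copper/zinc superoxide dismutase, differed from the other 19 named genes in its wild-type level. It had 932.0 and 572.0 in QK control and 651.4 and 555.7 in QK heat, and 96.7 to 172.4 in the wild types with a median of 146, so that its RNA was measured in all 3 lines. The mean difference was 4.43-fold of the signal plus 16. A further 2 members, which were singled out after their values were seen, also had a wild-type median above 100. The probe set 266165_at had 3052.0 and 2337.6 in QK control and 2578.0 and 2266.2 in QK heat, against 151.4 to 410.9. The probe set 264809_at had 2636.4 and 2249.2 in control and 2060.5 and 2183.7 in heat, against 258.1 to 665.3. In all 3 the highest QK array was control replicate 1, and the lowest wild-type arrays were those labelled Col-0 control replicate 2 and Ws heat replicate 2.

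The members without a gene name reached the highest signals. The largest distance between lines was that of 253767_at, with 857.6 and 2449.0 in QK control and 2377.2 and 2508.9 in QK heat, against 14.3 to 23.1 in the wild types. The next was 249082_at, with 1667.6 and 4866.2 in control and 3081.5 and 4534.5 in heat, against 9.3 to 90.5. The 24 unnamed members spanned 48.5 to 4866.2 in QK and 5.3 to 665.3 in the wild types, and their distances had a median of log2 2.26, against 1.59 for the named ones.

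The threshold cut through a continuous run of values. Just inside it lay AT5G10120, 252137_at and 262347_at with distances of 1.12, 1.07 and 1.02. Just outside lay AT1G47980, a desiccation-related protein, with 0.98, AT2G15010 with 0.95 and 260551_at with 0.94. AT1G47980 had 111.2 to 1062.2 in QK and 15.9 to 48.3 in the wild types, a wider difference at its top than several members had. Membership rested above all on QK control replicate 1: without that array the rule found 91 probe sets, the 44 and 47 more, and without any other single array it found 44 to 47.

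The QK arrays differed among themselves more at the members than elsewhere. The range over the 4 QK arrays had a median of log2 1.61 for the members and of 0.63 for all tested probe sets. QK control replicate 1 was the lowest QK array for 34 of the 44 members. The rule itself used the lowest QK array, and the share over all tested probe sets was not counted. In QK control, replicate 2 was brighter than replicate 1 for 41 of 44 members, with a median difference of log2 1.43, against 48.1% and -0.02 for all tested probe sets. In QK heat the count was 34 of 44, with a median of 0.39, against 47.5% and -0.02. Both replicate 2 arrays lay above both replicate 1 arrays for 29 members in QK and below them for 2, where the shares of all tested probe sets were 18.4% and 22.6%. The 3 members with CCS ran the other way in QK control, where 0 of 3 were brighter in replicate 2 and 41 of the other 41 were.

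**Figure D2:**
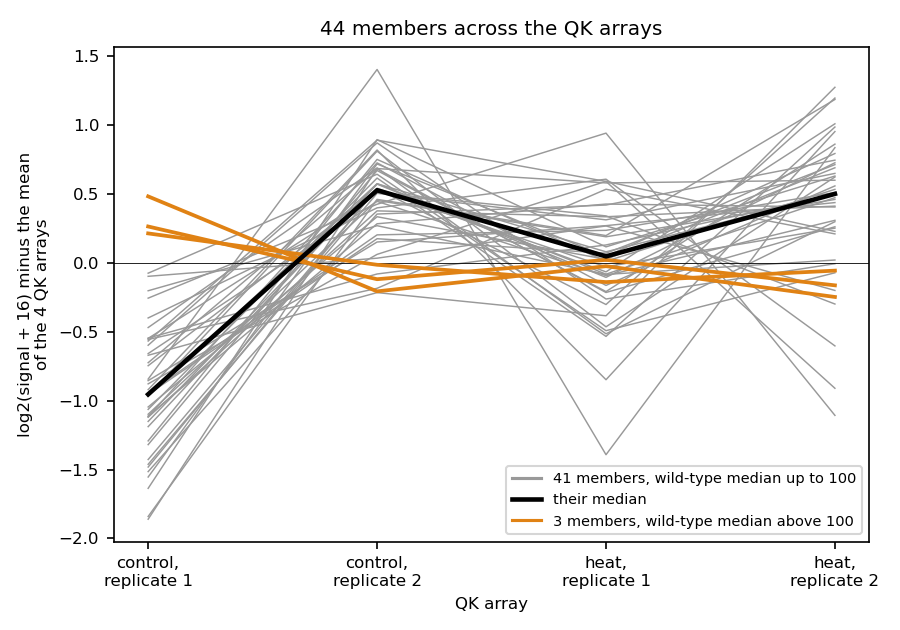
Each line is 1 of the 44 members on the 4 QK arrays, as log2(signal + 16) minus the member's own mean over these arrays. The median of the 41 members with a wild-type median up to 100 (black) is lowest in control replicate 1 and higher in both replicate 2 arrays, while the 3 members with a higher wild-type median (orange) are highest in control replicate 1.

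The same order of replicates was present in Col-0, at far lower signals. Both Col-0 replicate 2 arrays lay above both Col-0 replicate 1 arrays for 25 of 44 members and below them for 4, against 20.2% and 27.6% of all tested probe sets, a count that does not depend on the treatment labels. The differences were small: replicate 2 minus replicate 1 had a median over the members of log2 0.14 in Col-0, with quartiles of 0.01 and 0.6. In QK that median was 0.93, and over all tested probe sets in Col-0 it was -0.05. AtLEA4-1, a member with a larger difference, had 15.5 and 17.7 in the Col-0 replicate 1 arrays and 51.2 and 26.4 in the replicate 2 arrays. One of the Col-0 replicate 2 arrays was the highest wild-type array for 28 members, 21 times the one labelled control and 7 times the one labelled heat. The rule itself used the highest wild-type array, and the share over all tested probe sets was not counted. In Ws both replicate 2 arrays lay above both replicate 1 arrays for 11 members and below them for 8, against 19.9% and 22.5%. The difference between lines in this order was not tested. The 9 genes left out had the same order in QK, where 8 of 9 had both replicate 2 arrays above, and in Col-0, with 8 of 9.

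Heat called no member in QK. With limma fitted to the 8 arrays of Ws and QK, 0 of 44 members were called higher and 0 lower at an adjusted p under 0.05 and at least 2-fold, where 1.21% and 1.41% of 13284 tested probe sets were called higher and lower. At an unadjusted p under 0.05 there were 2 of 44, against 2568 of the 13284 tested probe sets. The log2 change had a median of 0.56 and ran from -0.57 for 262347_at to 1.38 for M17. The median standard error was 0.47 for the members and 0.23 for all tested probe sets. For M17 the standard error was 0.71 and the limma adjusted p 0.359. The LEA and stress proteins changed by log2 0.58 to 1.38, the storage and vacuole group by 0.04 to 0.94 and the oil droplet group by -0.27 to 0.89, and none of these was called.

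The members' heat changes in QK differed between the replicates. In replicate 1, 38 of 44 members were brighter at heat, with a median log2 change of 1.05, while in replicate 2 there were 21 of 44, with a median of -0.04. Over all tested probe sets 6469 and 6770 of 13284 were brighter at heat, with medians of -0.01 and 0.01. Each of these counts rests on 1 pair of arrays. M17 changed by log2 2.04 in replicate 1 and by 0.72 in replicate 2, and AT2G28490 by 1.75 and -0.26. The replicate numbers pair the arrays of Ws and QK (the correlations are given with the methods), and with the number as a block limma again called 0 members, against 2.09% higher and 3.4% lower of all tested. With the block 2 of 44 members had a limma adjusted p under 0.05, against 2064 of 13284 tested probe sets, and neither member reached 2-fold. They were 262128_at with log2 0.78 (adjusted p = 0.0251) and 265084_at with 0.74 (adjusted p = 0.0431). Without QK control replicate 2 the control is represented by its dimmer array alone, and some members were then called higher. Since that group held 1 array, only their log2 changes are given. They were 2.45 for 254095_at, 2.01 for AT2G28490, 1.94 for AT5G10120 and 1.49 for 253767_at. The share of all tested probe sets called in that fit was not counted.

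**Figure D3:**
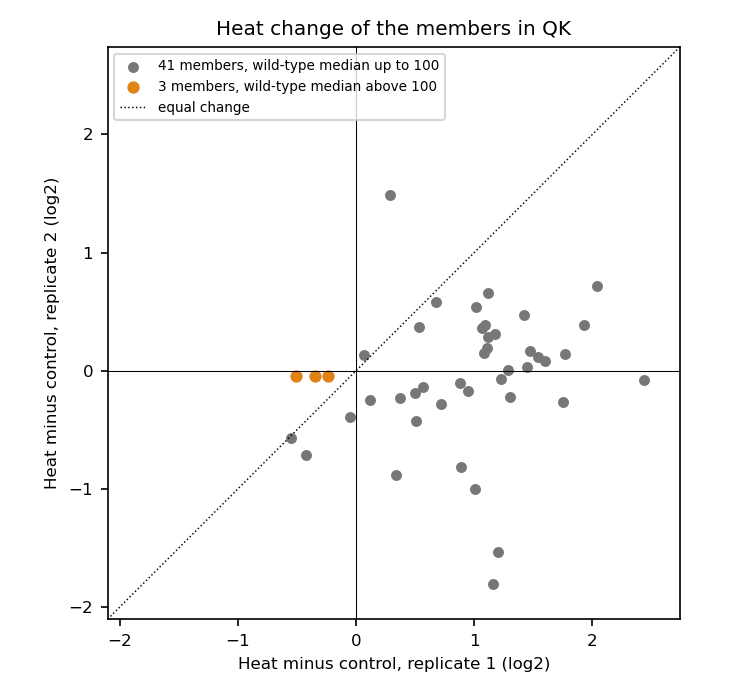
Heat minus control in QK for each of the 44 members, on the log2(signal + 16) scale, in replicate 1 (x axis) against replicate 2 (y axis). 38 points lie right of 0 on the x axis, while the y values spread about 0 with 21 above it. The dotted line marks equal change in both replicates.

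In Ws 0 members were called higher and 0 lower by limma, against 3.53% and 2.09% of all tested probe sets. At an unadjusted p under 0.05 there were 0 members, against 2932 of 13284 tested probe sets. Only 8 of the 44 members had at least 2 Ws arrays above the 35th percentile; the others lay near the floor there. The changes ran from -0.65 to 0.58 with a median of 0.03. With the replicate block 0 were called, against 4.1% and 4.3%. CCS, which was bright enough, had a log2 change of -0.25 in Ws and -0.27 in QK. The heat response of QK minus that of Ws had a median of 0.43 and called 0 members higher and 0 lower, against 0.0979% and 1.28%. At an unadjusted p under 0.05 there was 1 member, against 880 of 13284 tested probe sets. This member was 265084_at, with a difference of log2 0.96 (limma adjusted p = 0.312). The median standard error of the response difference was 0.67 for the members and 0.32 for all tested. With the replicate block 0 members were called, against 0.595% and 2.18%. Without QK control replicate 2, which leaves 1 array in QK control, 254095_at was called, with log2 2.38.

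The difference between the wild types was limited at the members by the rule, which held all 8 wild-type arrays below QK, and by the floor of the array. Ws minus Col-0, as the mean of both temperatures over 12 arrays, called 0 members higher and 0 lower by limma, against 0.176% and 0.352% of 13631 tested probe sets. At an unadjusted p under 0.05 there were 0 members, against 921 of the 13631. The differences ran from -0.79 to 0.44 with a median of -0.04. With the replicate block 0 were called, against 0.359% and 0.58%. The lowest was that of 249082_at, whose Col-0 signals of 12.1 and 12.6 in replicate 1 and of 38.4 and 90.5 in replicate 2 made up the difference. AT4G25580 had the highest, log2 0.44.

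Genes of the same pathways that did not meet the rule were read from 15 gene lists, in which 48 of 273 genes had a tested probe set with exactly 1 gene. QK was set against Ws as the mean of both temperatures. Of the members 42 of 44 were called higher here, which the rule brings about and from which nothing is read. Of the 38 list genes that did not meet the rule 5 were called higher and 6 lower by limma, where 1.55% and 1.54% of all tested probe sets were called.

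The 5 genes called higher, 4 LEA genes and PAP85, were below the 35th percentile in all 4 Ws arrays and passed the filter on dim probe sets only through QK, so they could hardly be called in the other direction. Of the 28 list genes with at least 2 Ws arrays above that level 0 were called higher. Of 22 tested LEA genes 2 were members (M17 and AtLEA4-1), 4 were among those left out, and 16 did not meet the rule. Of these 16, 9 passed the filter through QK alone, and 4 of the 9 were called higher. The other 7 gave 0 calls in either direction. AT3G53040 differed by log2 3.13 (SE 0.50, limma adjusted p = 0.0204) and LEA4-5, which protects enzymes in drying cells, by 3.09 (SE 0.59, limma adjusted p = 0.0375). LEA4-5 had a mean signal of 466 ± 382 in the QK arrays and 28.3 ± 9.88 in the Ws arrays (SD over 4 arrays of both temperatures). With the replicate number as a block 10 of the 16 were called higher and 0 lower, against 2.47% and 2.01% of all tested. That count is open to the same limit except for LTI30, whose Ws signals all lay above the 35th percentile. Leaving out any 1 of the 4 Ws arrays left 0 list genes called higher, and leaving out QK control replicate 2, QK heat replicate 1 or QK heat replicate 2 left 3, 3 and 1. The cold-regulated genes of the list, singled out after their values were seen, differed in sign and gave no calls without the block. LTI30, a cold-induced dehydrin, had a difference of log2 1.72 (limma adjusted p = 0.105), and was called higher with the replicate block (adjusted p = 0.0304). Its signals were 906.1 to 2793.2 in QK and 353.7 to 705.3 in Ws. In Col-0 they were 758.4 to 1458.6, which overlaps QK. COR47, a dehydrin, had a difference of log2 -0.22 (limma adjusted p = 0.726), COR15A one of -0.48 (adjusted p = 0.587) and COR15B one of -1.07 (adjusted p = 0.464). The LEA list was chosen with earlier results of these data known, so it is no independent evidence of a direction.

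**Figure D4:**
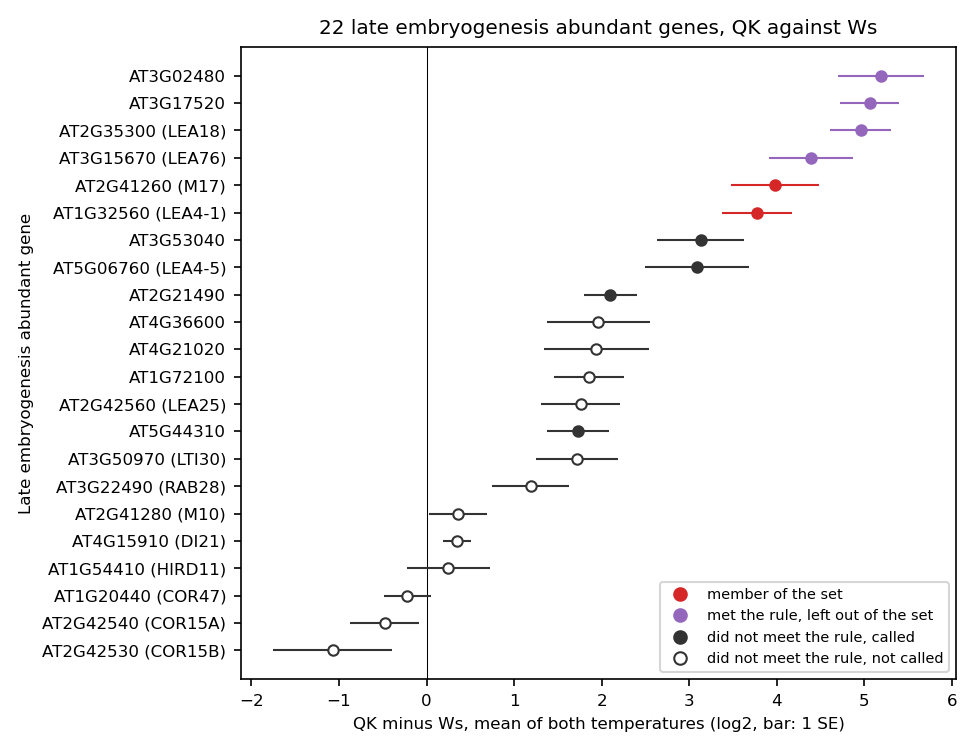
Difference between QK and Ws (log2, mean of both temperatures) for the 22 tested LEA genes, with bars of 1 standard error. Filled points were called by limma at an adjusted p under 0.05 and 2-fold. The 2 members and the 4 genes left out stand at the top, 4 further genes are called higher, and COR47, COR15A and COR15B lie below 0.

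Of the 20 genes of the seed storage and oil body list 5 had a probe set of their own. Of the 3 tested, 2 were members, the oleosins above. The third, PAP85, a vicilin-like globulin that passed the filter through QK alone, was called higher by log2 1.67 (SE 0.32, limma adjusted p = 0.0394), with 79.7 ± 41.9 in QK and 11.4 ± 0.981 in Ws (SD over 4 arrays). The list's OLEO3 and CRD were too dim to be tested, with QK means of 28.2 and 19.5. Lists for other seed and defence pathways gave no calls among genes that did not meet the rule. Few of their genes had a probe set, such as 1 of 27 for abscisic acid and 2 of 13 seed maturation regulators. The absence of calls therefore does not speak for whole pathways. Whether further list genes are among the unnamed members cannot be told. Of the 3 tested genes of the seed lipid mobilisation list, ICL met the rule and was among the genes left out. Its signals were 555.5 to 2203.7 in QK and 34.1 to 94.8 in the wild types, a separation that the rule requires. AIM1, an enzyme of fatty acid beta-oxidation, had a log2 difference of 0.25 and SDP1, the oil body lipase, one of -0.39. Neither AIM1 nor SDP1 was called. BZIP13, the one tested seed maturation regulator, had -0.14, and SWEET15, a sugar carrier and the one tested gene of the abscisic acid list, had 0.62 (limma adjusted p = 0.379). PDF1.2 (-0.76), a defensin, and BCAT4 (-0.34), an enzyme of glucosinolate synthesis, were the one tested gene of their lists, and neither was called. The lists for jasmonate, flavonoids and raffinose sugars had 0 tested genes.

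All 6 lower calls came from the list of heat shock proteins and factors, where 6 of 8 tested genes were lower in QK than in Ws over both temperatures. With all 12 arrays in the fit 0 were called lower, and with 10 arrays, without both Col-0 replicate 2 arrays, 6 were. Of the 6, 4 had fewer than 2 QK arrays above the 35th percentile and passed the filter through Ws. HSP23.5, a mitochondrial small heat shock protein, differed by log2 -3.96 (SE 0.56, limma adjusted p = 0.0138) and HOP3, a partner of HSP70 and HSP90, by -3.55 (SE 0.40, adjusted p = 0.00724). These means of both temperatures rest mostly on the heated arrays. HSP23.5 had 46.5 and 52.2 in Ws control and 7.6 and 8.4 in QK control. At heat it had 5916.5 and 5819.8 in Ws and 9.4 and 157.7 in QK. HOP3 had 17.8 and 52.1 in Ws control and 9.2 and 9.0 in QK control. At heat it had 3049.1 and 3568.8 in Ws and 9.8 and 67.3 in QK. With the replicate block all 8 were called lower, and without Ws heat replicate 1 or 2 there were 3 lower calls. Of the 26 genes of this list 8 had a probe set of their own, and none of the 8 was a member.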

How the data were processed

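RNA of 12 seedling samples was hybridised to Affymetrix arrays. The authors deposited a linear signal intensity for each probe set and array. The submitters' processing notes name GCOS 1.4. The summary algorithm, scaling and genome build are not given in the sources used here. The arrays had close medians, so no further normalization was applied.

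Of 18465 probe sets the annotation paired 10396 with 1 gene, 398 with several and 7671 with none. 10340 matched the RefSeq gene table (TAIR10.1), which was used for names and gene order. The signal was transformed as log2(signal + 16). Probe sets above the 35th percentile of their array in at least 2 fitted arrays were tested with limma 3.58.1 in R 4.3.3 (1 mean per group, trended empirical Bayes, two-sided, Benjamini-Hochberg over all tested). Calls needed an adjusted p under 0.05 and 2-fold. Heat and QK against Ws used 8 arrays (4 residual degrees of freedom), Ws against Col-0 used 12 (6 residual degrees of freedom).

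The members, the lists and the choice to leave Col-0 out of the heat tests were made with earlier results of these data known. All single-gene members are named, and list genes by a rule of size among the calls. Other list genes and unnamed probe sets, beyond the 2 of largest distance and those nearest the threshold, were singled out after their values were seen, as were the role groups. Replicates are separate biological repeats. Differences between replicates 2 and 1 correlated across probe sets at 0.587 to 0.807 in 6 of 6 pairs of Ws and QK groups, and in 14 of 15 pairs overall the value was above 0.1 (lowest -0.173, both Col-0 groups). The fit was tested on simulated data: of 100 probe sets raised and 100 lowered 4-fold in heated QK, 71 and 67 were called, with 5 false calls among 12870. The changed probe sets were drawn from brighter ones, and the simulated noise had no shared replicate effect. These counts therefore do not give the share of changes that would be found at the members. Alternatives were the replicate block, other pseudocounts, filters, normalizations and array sets.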

Additional observations from a re-analysis of the deposited data

How the results depend on the processing

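The rule depended on its settings: the number of members was 61 with a pseudocount of 1, 28 with 64, 21 with a distance of 2, 85 with a distance of 0.5, and 44 under quantile normalization and under centring on the 75th percentile. It was 51 without both Col-0 replicate 2 arrays, and 44 to 91 as each array was left out. Counts of members called by limma stayed at 0 in every alternative run, the replicate block included, for heat in Ws and for Ws minus Col-0. For heat in QK they were 0 to 4 higher and 0 lower, and for the response of QK minus Ws 0 to 1 higher and 0 lower, in both cases above 0 only without QK control replicate 2, where 254095_at was the one called for the response (log2 2.38, adjusted p = 0.036). The cause was not tested. Of the 38 list genes, 5 higher became 11 with the replicate block and 2 with a pseudocount of 64. The 6 lower became 0 with all 12 arrays and were 6 with 10 arrays, without both Col-0 replicate 2 arrays. Here too the cause was not tested. As each array was left out, 0 to 6 were higher (0 without any 1 Ws array) and 3 to 8 lower, with 3 without Ws heat replicate 1 or 2. Dim signals limit what could be seen in the wild types: 8 of 44 members had 2 or more Ws arrays above the 35th percentile.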
